A study of Mus musculus with 30 samples.

Results

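The 8 genes followed here encode ligands, a receptor, inhibitors and targets of bone morphogenetic protein (BMP) signalling. Bmp4 and Bmp7 encode secreted BMP ligands, and Bmpr1a encodes the type I receptor that binds Bmp4. Bambi encodes a pseudoreceptor without kinase domain, and Smad6 encodes an inhibitory SMAD. Id1, Id2 and Id3 encode helix-loop-helix proteins without a DNA-binding domain. The genes were listed by name and matched by symbol and gene identifier to the deposited count tables, where they made up 8 of the 55401 genes of each table. All 8 passed the filter on low exon counts in each of the 4 tables.

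BMP ligands assemble type I and type II serine/threonine kinase receptors, which phosphorylate SMAD1, SMAD5 and SMAD9. These SMADs enter the nucleus with SMAD4 and activate the Id genes together with Smad6 and Bambi, which act back on the pathway. In mouse embryonic stem (ES) cells grown with serum and leukemia inhibitory factor (LIF), BMP supplied by serum maintains Id expression, and Id proteins hold back differentiation by binding E proteins.

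Nuclear RNA was sequenced from mouse ES cells in 30 libraries, 2 for each of 15 conditions. SYAT cells are CGR8 ES cells in which both Srcap alleles carry YPet and an auxin-inducible degron, and which express the rice receptor OsTir1, so that indole-3-acetic acid (IAA, auxin) triggers degradation of SRCAP, the ATPase that deposits the histone variant H2A.Z. They were collected 2, 4, 6 and 8 h after addition of 500 µM IAA, and their controls were kept in the Tir1 inhibitor auxinole. Parental CGR8 cells, which carry no degron, received IAA for 4 h or none. SYAT cells with or without IAA for 1 h were sorted into early G1 (EG1) and late G1 (LG1). SYAT cells with doxycycline-induced wild-type SRCAP (wtSRCAP) or catalytically dead SRCAP (cdSRCAP), induced for 24 h, were left in the control condition or given IAA for 4 h. Per the labels the controls of the sorted and transgene cells were in auxinole too, and none is given for CGR8 cells. The labels do not say whether IAA samples kept auxinole. In SYAT-derived cells IAA and control libraries may therefore differ in auxinole as well as in IAA. All cells were kept in serum and LIF for the experiments. SYAT cells came from 1 knock-in clone that was then transduced with OsTir1, selected and sorted as a population. Each of the wtSRCAP and cdSRCAP lines is 1 clone, so that between these lines transgene and clone cannot be told apart. Per the study's methods the 2 libraries of a condition are biological duplicates, grown and treated separately.

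Exon counts totalled between 45617992 and 60214521 per library in the CGR8 table and between 12236493 and 26672402 in the other tables. All 8 ES cell markers examined (Pou5f1, Sox2, Nanog, Zfp42, Esrrb, Klf4, Tfcp2l1 and Dppa5a) were detected in every library. Srcap exon counts lay between 39.9 and 60.2 CPM over the SYAT time course (CPM are counts scaled to a common library size). The degron acts on the protein, so that the RNA does not check the IAA labels, and the Srcap count shares exon bases with the overlapping gene Gm42715. One library stood apart: the second 6 h IAA library of the SYAT time course lay at 83.0 on the first principal component (28.6% of the variance), and the other 9 lay between -21.7 and 16.4. The 6 h fold changes of the members are therefore given with and without it. Library sizes for CPM were scaled by the trimmed mean of M values (TMM) within a table. The tables were scaled separately, so fold changes were taken within a table only.

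Positions are given on GRCm38. Bmp4 (ENSMUSG00000021835.15) lies at chr14:46383520-46390669 on the minus strand and Bmpr1a (ENSMUSG00000021796.15) at chr14:34410734-34503341 on the minus strand. Bmp7 (ENSMUSG00000008999.7) lies at chr2:172868012-172940321 on the minus strand and Id1 (ENSMUSG00000042745.9) at chr2:152736251-152737410 on the plus strand. Smad6 (ENSMUSG00000036867.7) lies at chr9:63953076-64022059 on the minus strand, Id2 (ENSMUSG00000020644.9) at chr12:25093799-25097140 on the minus strand and Id3 (ENSMUSG00000007872.3) at chr4:136143497-136145755 on the plus strand. Merged exons covered from 1160 bases (Id1, whose annotated transcripts together leave no intronic base) to 6351 bases (Bmpr1a). Bmp4 shares 89 exon bases with Gm15217 and Bmpr1a shares 290 with the antisense gene Gm17110, both on the opposite strand. Since the strand setting of the counting is not given in the sources used here, reads over those bases could belong to either gene.

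RefSeq promoter windows (GRCm38.p6, the 250 bases before the annotated start) were at hand for 5 of the 8 members. The windows of Bmp4 and Smad6 are shown because these members were called together in wtSRCAP cells with IAA. That was in the fit with the replicate number as a block, described below, and not in the fit without it. Both are written 5′ to 3′ on the minus strand, Bmp4 from chr14:46390670-46390919 and Smad6 from chr9:64022060-64022309.
Bmp4: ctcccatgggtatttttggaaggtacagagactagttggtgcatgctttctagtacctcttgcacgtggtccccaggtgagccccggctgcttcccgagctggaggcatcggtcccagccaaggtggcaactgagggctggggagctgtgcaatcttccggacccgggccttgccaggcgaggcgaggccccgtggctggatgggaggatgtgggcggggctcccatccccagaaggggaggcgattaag
Smad6: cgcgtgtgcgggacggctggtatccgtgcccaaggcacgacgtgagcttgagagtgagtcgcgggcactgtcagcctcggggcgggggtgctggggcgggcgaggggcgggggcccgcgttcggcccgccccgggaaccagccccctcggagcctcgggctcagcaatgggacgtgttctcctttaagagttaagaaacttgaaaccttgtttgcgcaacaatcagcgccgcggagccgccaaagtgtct
Each window was searched on both strands for GGCGCC, the core of a BMP-responsive SMAD element, and for the shorter SMAD-binding word GTCTG. Neither word was present in the Bmp4 or Smad6 window. The Id2 and Bmpr1a windows each held GGCGCC once, 231 and 198 bases before the start. The Id3 window held the shorter word at 167 and 68 bases before the start. The windows of Id2, Bmpr1a and Id3 lie before the RefSeq start but inside the gene spans given above. Over all 32851 promoter windows of the same length, 9.59% held GGCGCC and 42.2% held the shorter word. These matches describe letters in the windows and were not tied to any measured binding.

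Levels differed widely among the members. Per kilobase of merged exon, Id1 had the highest level in all 15 conditions, with means between 73.5 and 153.8 CPM per kilobase. In SYAT controls Id1 averaged 95.3 ± 8.53 CPM per kilobase (SD, n = 2) and Id3 followed with 29.2 ± 1.60, with no overlap between the genes. Bmpr1a (13.3 ± 1.55) and Id2 (12.8 ± 1.57) came next and overlapped each other. Below them were Bmp4 (4.78 ± 1.00), Bambi (2.30 ± 0.222), Smad6 (0.954 ± 0.147) and Bmp7 (0.644 ± 0.0683), whose libraries did not overlap their neighbours in this order. Bmp7 was the lowest member in all conditions outside the sorted cells. Bmp4 moved most in rank across conditions: it was last in both EG1 conditions and second, ahead of Id3, in wtSRCAP cells with IAA and in cdSRCAP cells with and without IAA, although in wtSRCAP cells with IAA the Bmp4 and Id3 libraries overlapped. These ranks set levels side by side from tables that were scaled separately and carry no test.

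**Figure D1:**
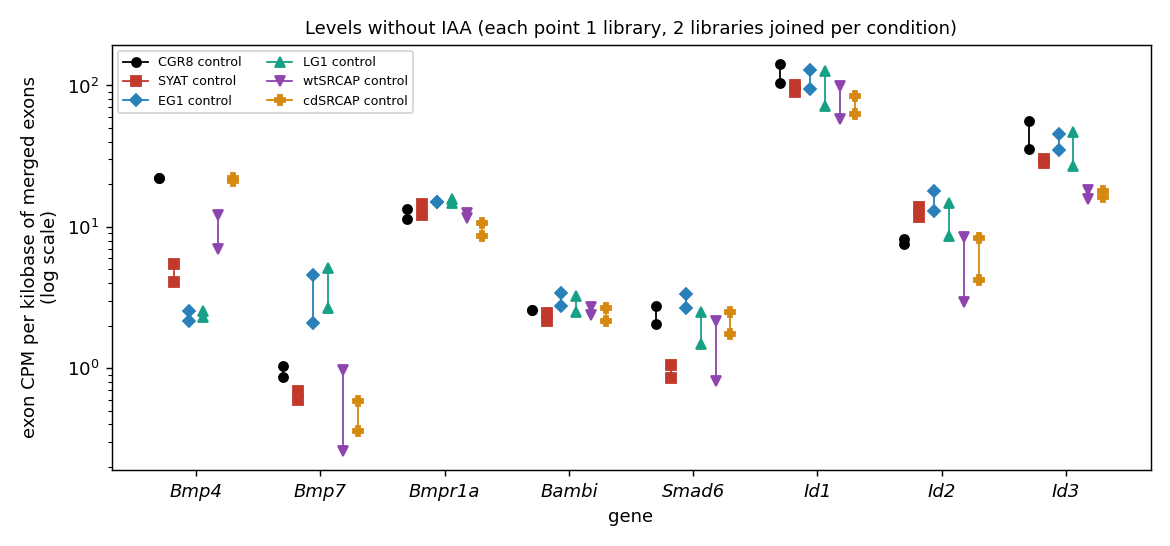
Exon CPM per kilobase of merged exons (log scale) of the 8 members in the 6 conditions without IAA, with 1 point per library and a line joining the 2 libraries of a condition. Id1 sits highest in every control condition, and the Bmp4 points range from 2.34 CPM per kilobase on average in EG1 controls to 22.2 in CGR8 controls.

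At each time of the SYAT course and in both transgene lines Bmp4 had the largest log2 fold change of the 8 members with IAA, except that at 6 h without the second IAA library Bmp7 (0.79) stood above Bmp4 (0.74). In the SYAT time course its exon level was 9.16 and 12.4 CPM in the controls. It was 15.3 and 26.8 CPM at 2 h, 16.2 and 25.7 at 4 h, 17.9 and 28.1 at 6 h, and 18.2 and 25.2 at 8 h. All 8 IAA libraries lay above both controls, and at each time the second library was the higher one, as it was in the controls. The log2 fold change was 0.97 at 2 h (SE 0.344), 0.96 at 4 h (SE 0.344), 1.09 at 6 h (SE 0.346) and 1.01 at 8 h (SE 0.344), by edgeR's quasi-likelihood fit. These 4 contrasts share the same 2 controls. None passed after Benjamini-Hochberg adjustment over all genes tested, with an adjusted p of 1.00 at 2 h, 0.415 at 4 h, 0.180 at 6 h and 0.238 at 8 h. Leaving out 1 library moved the value between 0.51 and 1.30 at 2 h and between 0.59 and 1.25 at 4 h, with the lowest values without the second IAA library of each time. Between 8 h and 2 h Bmp4 differed by 0.04 on the log2 scale (SE 0.337, edgeR adjusted p = 0.999), where 0% of genes were called.

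A call here required an adjusted p under 0.05 and an absolute log2 fold change over 0.5. By this rule none of the 8 members was called at any time of the SYAT course, against 0% of all 19205 genes tested at 2 h, 0% at 4 h, 0.0677% at 6 h and 0.00521% at 8 h. At an unadjusted p under 0.05, 1 member passed at 2, 4 and 8 h, in each case Bmp4, against 3.92%, 9.09% and 13.6% of all genes, and 5 passed at 6 h against 16.1%. DESeq2 called Bmp4 at 6 h and no member at the other times. In the edgeR test over all 4 times at once, Bmp4 had the lowest p of the members (adjusted p = 0.704), and 0% of all genes passed. Without a filter on low counts edgeR called Bmp4 at 4, 6 and 8 h. Adding a term for replicate number to the edgeR model gave Bmp4 calls at 4, 6 and 8 h. The same term in DESeq2 gave Bmp4 calls at 2, 4, 6 and 8 h, and an Id3 call at 6 h. Same-numbered libraries correlated at 0.267 to 0.589 between conditions other than 6 h, and at -0.036 to 0.062 in pairs with 6 h. Pairing required a correlation above 0.1 in every pair, so these calls are alternatives to the main fit. The share of all genes called by DESeq2, without the filter or with the replicate term is not given here. These calls are therefore not read as particular to the members. Members whose 8 IAA libraries all lay above both controls were Bmp4, Smad6 and Id3, which is 3 of 8, against 5.97% of all genes tested. Time by time, 6, 6, 5 and 5 members lay above the controls without overlap at 2, 4, 6 and 8 h, against 18.6%, 21.7%, 21.5% and 20.9% of genes.

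**Figure D2:**
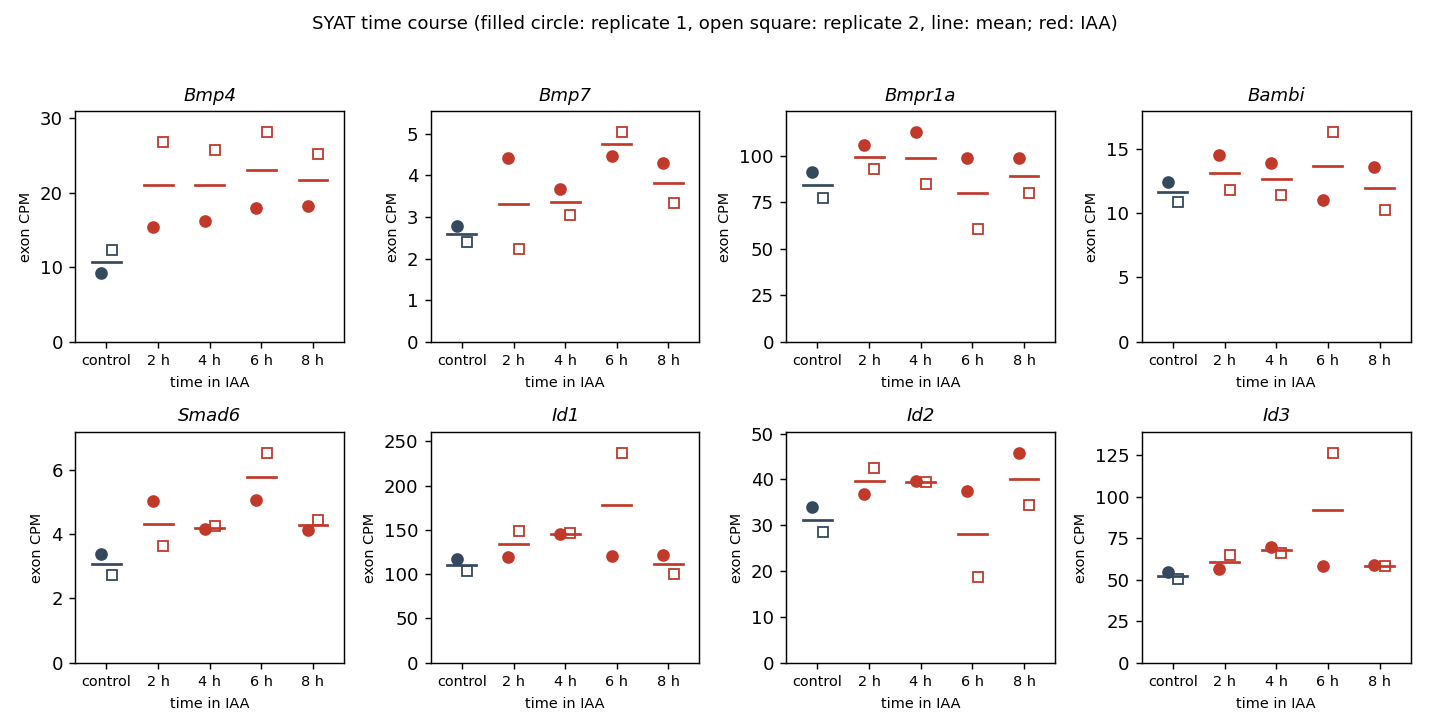
Exon CPM of the 8 members in each library of the SYAT time course, by hours in IAA, with replicate 1 as filled circles, replicate 2 as open squares and lines for the mean of 2 libraries. All 8 Bmp4 values in IAA (15.3 to 28.1 CPM) lie above both controls (9.16 and 12.4), and the second 6 h library is the extreme point for Id1, Id2 and Id3.

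In CGR8 cells, which have no degron, Bmp4 was also higher in the IAA libraries. It stood at 50.1 and 49.9 CPM without IAA and at 68.2 and 66.6 CPM after 4 h of IAA. The groups did not overlap, and the log2 fold change was 0.43 (SE 0.132, edgeR adjusted p = 0.540). No member was called by edgeR, against 0.00988% of 20250 genes, and none by DESeq2. At an unadjusted p under 0.05, 2 of 8 members passed against 9.16% of all genes, Bmp4 higher and Id1 lower. Groups did not overlap for 3 members (Bmp4 higher, Bmp7 and Id1 lower), against 42.2% of genes. The CGR8 and SYAT tables were fitted apart, and whether 0.43 in CGR8 cells differs from 0.96 in SYAT cells at 4 h was not tested.

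In the sorted cells Bmp4 was low. EG1 controls had 4.83 and 5.69 CPM and EG1 cells after 1 h of IAA had 6.13 and 7.52. LG1 controls had 5.72 and 5.19 CPM and LG1 cells after 1 h of IAA had 6.02 and 6.79. In both phases the Bmp4 values of the IAA libraries lay above the controls, which was true of 7.98% of genes in EG1 and 7.83% in LG1, and of no other member. The log2 fold changes were 0.38 in EG1 (SE 0.203) and 0.23 in LG1 (SE 0.205), and the effect in LG1 minus that in EG1 was -0.15 (SE 0.289), each with an edgeR adjusted p = 1.00. No member was called with IAA in either phase by edgeR or DESeq2, against 0% of 21020 genes, and none had an unadjusted p under 0.05, against 1.22% of genes in EG1 and 1.02% in LG1. With the replicate number as a block the adjusted p was 0.546 for Bmp4 in EG1 and 0.843 in LG1, and no member was called, against 0.00951% and 0.00476% of genes. In that blocked edgeR fit Bambi, not Bmp4, had the lowest adjusted p of the members in both phases. Its log2 fold change was 0.26 in EG1 (adjusted p = 0.478) and 0.32 in LG1 (adjusted p = 0.503).

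In cells carrying a SRCAP transgene, Bmp4 was higher with IAA and higher with cdSRCAP than with wtSRCAP. Wild-type controls had 27.5 and 15.6 CPM and reached 71.8 and 38.6 CPM after 4 h of IAA. Cells with cdSRCAP had 49.9 and 47.1 CPM in the controls and 90.9 and 81.5 CPM after IAA. In every one of the 3 comparisons that follow the groups did not overlap. The log2 fold change with IAA was 1.36 in wtSRCAP cells (SE 0.344, edgeR adjusted p = 0.622) and 0.83 in cdSRCAP cells (SE 0.337, edgeR adjusted p = 0.852). Leaving out 1 library moved the wtSRCAP value between 0.87 (without the first IAA library) and 1.81 (without the first control). Between cdSRCAP and wtSRCAP controls it was 1.17 (SE 0.342, edgeR adjusted p = 1.00). No member was called in these comparisons by edgeR or DESeq2, against 0.00523% of 19111 genes with IAA in wtSRCAP cells, 0% with IAA in cdSRCAP cells and 0% between the controls. At an unadjusted p under 0.05 Bmp4 was the 1 member that passed in each, against 7.4%, 5.64% and 3.82% of genes. Between the 2 lines with IAA no member passed either rule (0.00523% and 5.03% of genes). With IAA, 1 member in wtSRCAP cells (Bmp4) and 5 in cdSRCAP cells lay above the controls without overlap, against 14.9% and 18.7% of genes.

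The same-numbered libraries of this table deviated together, with correlations between 0.260 and 0.376 in all 6 pairs of conditions, so that the fit with the replicate number as a block was read beside these results. With the block Bmp4 rose with IAA in wtSRCAP cells by 1.35 on the log2 scale (SE 0.192, adjusted p = 0.00049). It rose in cdSRCAP cells by 0.82 (SE 0.184, adjusted p = 0.0200), and it was higher in cdSRCAP than wtSRCAP controls by 1.23 (SE 0.191, adjusted p = 0.00120). Between cdSRCAP and wtSRCAP cells that both had IAA, Bmp4 differed by 0.71 with the block (SE 0.185, adjusted p = 0.0546) and was not called. The blocked edgeR fit called 3.2% of all genes with IAA in wtSRCAP cells, 1.81% in cdSRCAP cells, 0.91% between the controls and 1.41% between the IAA groups. The IAA effect in cdSRCAP cells minus that in wtSRCAP cells was -0.53 for Bmp4 (SE 0.476, edgeR adjusted p = 1.00, and SE 0.263, adjusted p = 0.998 with the block), and no member passed this test in either fit (0% of genes).

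**Figure D3:**
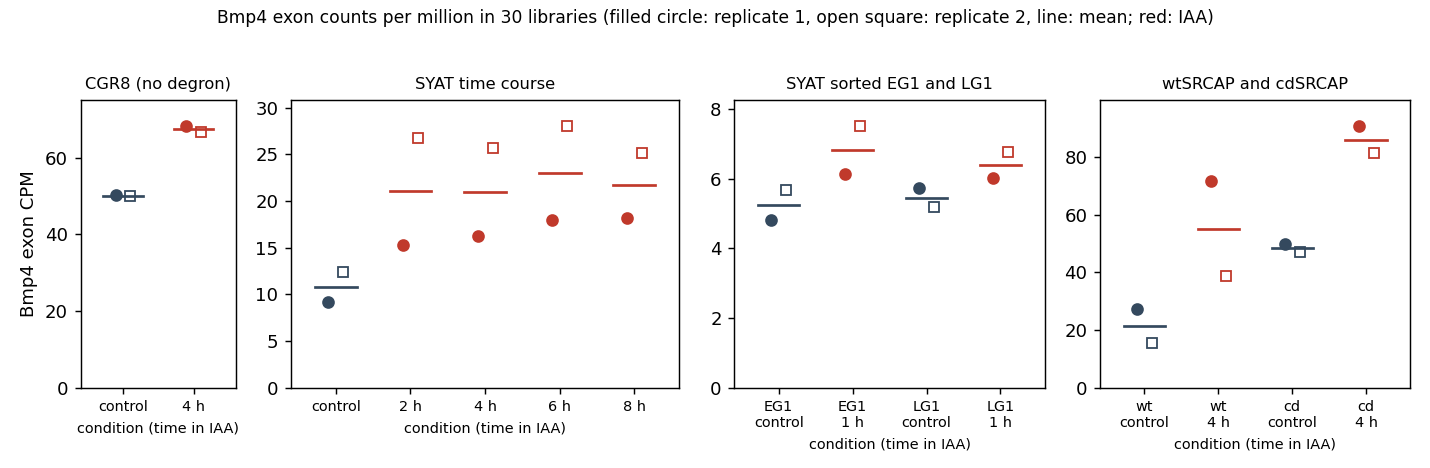
Bmp4 exon CPM in all 30 libraries, in 4 panels with separate axes for the 4 count tables, with replicate 1 as filled circles, replicate 2 as open squares, lines for means and red for IAA. Within every panel the red points of a line or phase lie above its dark control points, and cdSRCAP controls (49.9 and 47.1) lie above wtSRCAP controls (27.5 and 15.6).

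Bmp4 was thus above its controls in the IAA libraries of CGR8, SYAT at all times, EG1, LG1, wtSRCAP and cdSRCAP cells at once. This held for 7 of the 17481 genes tested in all 4 tables (0.04%), and the others, read out after their values were seen, were Atp1b1, Ddc, Foxp1, Pax6, Rfx4 and Tbc1d9. Bmp4 meets this rule by the values given above, so the share describes the pattern and is no test of Bmp4. The list includes CGR8 cells, which have no degron. Markers of other cell types were summed over the same libraries. The 5 primitive streak and mesoderm markers (T, Mixl1, Eomes, Kdr and Mesp1) summed to 9.87 to 13.4 CPM in SYAT controls and to 15.04 to 24.8 CPM in the 8 IAA libraries. Over the SYAT course Eomes alone had 7.31 to 18.5 CPM, and no other marker of this sum exceeded 2.91 CPM. The sum of the 5 markers went from between 4.54 and 6.93 to between 9.74 and 15.3 CPM with IAA in wtSRCAP cells, and from between 7.16 and 7.86 to between 15.4 and 17.3 CPM in cdSRCAP cells. It was 7.32 to 8.66 CPM in CGR8 controls and 9.30 to 10.5 CPM after IAA. In sorted cells it overlapped between the groups, at 14 and 15.5 CPM in EG1 controls and 15.9 and 14.4 CPM with IAA, and at 14.4 and 12.2 CPM in LG1 controls and 13.8 and 12.8 CPM with IAA. At most 1 of the 5 markers was at 0 in any of these libraries. The trophectoderm markers (Cdx2, Elf5, Krt8 and Krt18) summed to 127.2 and 41.6 CPM in wtSRCAP controls and to 32.2 and 27.96 CPM in cdSRCAP controls. The primitive endoderm markers (Gata4, Sox17, Sox7, Pdgfra and Dab2) summed to 12.5 to 15.6 CPM in SYAT controls and 14.9 to 17.3 CPM in IAA libraries. Fibroblast markers (Col1a1, Col1a2, Thy1 and Lum) summed to 21.5 to 26.3 CPM in SYAT controls and 22.2 to 38.1 CPM with IAA, and to 4.99 and 5.31 CPM in wtSRCAP controls and up to 12.1 CPM with IAA. Neuroectoderm markers (Sox1, Pax6 and Nes) summed to 130.3 and 219.3 CPM in SYAT controls and 132.2 to 229.7 CPM with IAA. Nes alone had 113.5 to 218.2 CPM over the SYAT course, and Pax6 had 5.77 to 17.05 CPM. The 8 ES cell markers summed to 3938 and 3178 CPM in CGR8 controls and to 3780 and 3597 with IAA. In SYAT cells they summed to 1524 and 1925 CPM in the controls and 1683 to 2720 with IAA. They went from 2447 and 2749 to 3274 and 3076 CPM with IAA in wtSRCAP cells. In cdSRCAP cells they overlapped, at 2822 and 3791 CPM in the controls and 3474 and 4162 with IAA. The part of these cell states in the Bmp4 result was not tested, and in bulk RNA fewer cells of a type and less RNA per cell cannot be told apart.

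Bmp7, the second ligand, was low outside the sorted cells. In the SYAT course it had 2.78 and 2.40 CPM in the controls, 4.42 and 2.22 at 2 h, 3.67 and 3.06 at 4 h, 4.47 and 5.04 at 6 h, and 4.31 and 3.33 at 8 h. The IAA libraries lay above both controls at 4, 6 and 8 h. The largest difference was 0.88 on the log2 scale at 6 h (SE 0.349, edgeR adjusted p = 0.259), and it was 0.79 (SE 0.417, adjusted p = 0.500) without the second 6 h library. Sorted cells had 7.84 to 20.5 CPM, and there the first library of each condition had from 18.4 to 20.5 CPM and the second from 7.84 to 10.96, with log2 fold changes with IAA of 0.01 (EG1) and -0.02 (LG1). In wtSRCAP cells it had 3.89 and 1.04 CPM in the controls and 6.15 and 1.96 CPM with IAA, which overlapped. The log2 fold change was 0.70 (edgeR adjusted p = 0.884), and leaving out 1 library moved it from -0.29 (without the first IAA library) to 1.90 (without the first control). In cdSRCAP cells it went from 2.34 and 1.43 CPM to 3.45 and 2.56 CPM without overlap, a log2 fold change of 0.69 (edgeR adjusted p = 0.996). CGR8 cells went from 3.48 and 4.13 CPM to 3.36 and 2.83 CPM after IAA, a log2 fold change of -0.30 (edgeR adjusted p = 0.763).

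Bmpr1a, the receptor, varied little over the sorted cells. Its 8 sorted libraries lay between 93.2 and 101.6 CPM, and its log2 fold changes with IAA were 0.03 in EG1 (SE 0.125) and 0.02 in LG1 (SE 0.125). In the SYAT course it stood at 91.5 and 77.5 CPM in the controls and between 60.7 and 112.6 CPM with IAA, overlapping the controls at 4, 6 and 8 h. Its log2 fold changes there ran from -0.08 at 6 h to 0.23 at 2 h, and no edgeR adjusted p was under 0.8. Without the second 6 h library the 6 h value turned to 0.23 (adjusted p = 0.692). In cdSRCAP cells it went from 55.0 and 67.4 CPM to 88.2 and 75.8 CPM with IAA, with no overlap, a log2 fold change of 0.42 (SE 0.249, edgeR adjusted p = 0.973, and adjusted p = 0.225 with the block).

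Bambi and Smad6, the inhibitors, were not compared with each other by a test. Bambi (ENSMUSG00000024232.2, on chromosome 18) had 12.5 and 10.9 CPM in SYAT controls and between 10.3 and 16.3 CPM in the IAA libraries, overlapping at every time, with log2 fold changes between 0.03 and 0.23. Without the second 6 h library the 6 h value of Bambi was -0.08 (edgeR adjusted p = 0.930). In cdSRCAP cells Bambi lay above its controls with IAA without overlap, with a log2 fold change of 0.39 (blocked edgeR adjusted p = 0.462). Its log2 fold changes with IAA were 0.06 in wtSRCAP cells, 0.26 in EG1 and 0.33 in LG1, with overlap in each. Smad6, the intracellular inhibitor, had 3.39 and 2.73 CPM in the SYAT controls, 5.02 and 3.63 at 2 h, 4.15 and 4.23 at 4 h, 5.05 and 6.51 at 6 h, and 4.11 and 4.44 at 8 h. Each IAA library of Smad6 lay above both controls. Its log2 fold changes were 0.50 at 2 h, 0.46 at 4 h, 0.92 at 6 h and 0.49 at 8 h, with edgeR adjusted p of 1.00, 0.722, 0.161 and 0.480. Without the second 6 h library it was 0.73 (SE 0.298, adjusted p = 0.371).

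In wtSRCAP cells Smad6 differed widely between replicates. It had 6.93 and 2.59 CPM in the controls and 19.0 and 5.24 CPM with IAA, so that the groups overlapped while both pairs differed the same way. The log2 fold change was 1.34 (SE 0.624, edgeR adjusted p = 0.690), and with the replicate block Smad6 rose by 1.27 (SE 0.315, adjusted p = 0.0278). Leaving out 1 library moved the value without the block between 0.18 (without the first IAA library) and 2.19 (without the first control). In cdSRCAP cells the libraries went from 7.98 and 5.61 CPM to 12.4 and 8.61 CPM without overlap, with a log2 fold change of 0.64 (SE 0.608, edgeR adjusted p = 0.996, and adjusted p = 0.348 with the block). Between phases, Smad6 had 10.7 and 8.49 CPM in EG1 controls and 8.02 and 4.77 CPM in LG1 controls, and it was the 1 member whose groups did not overlap, against 22.4% of all genes. The log2 difference, LG1 minus EG1, was -0.59 (SE 0.315, edgeR adjusted p = 1.00), and no member was called or had an unadjusted p under 0.05 (0% and 1.44% of genes). Same-numbered sorted libraries deviated together, with correlations from 0.372 to 0.587, and with the block Smad6 was called lower in LG1 controls (log2 difference -0.60, SE 0.138, adjusted p = 0.0278), against 0.723% of genes called. Id2 was lower there by -0.42 on the log2 scale (SE 0.0909, adjusted p = 0.0170) and stayed under the 0.5 size that a call required.

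**Figure D4:**
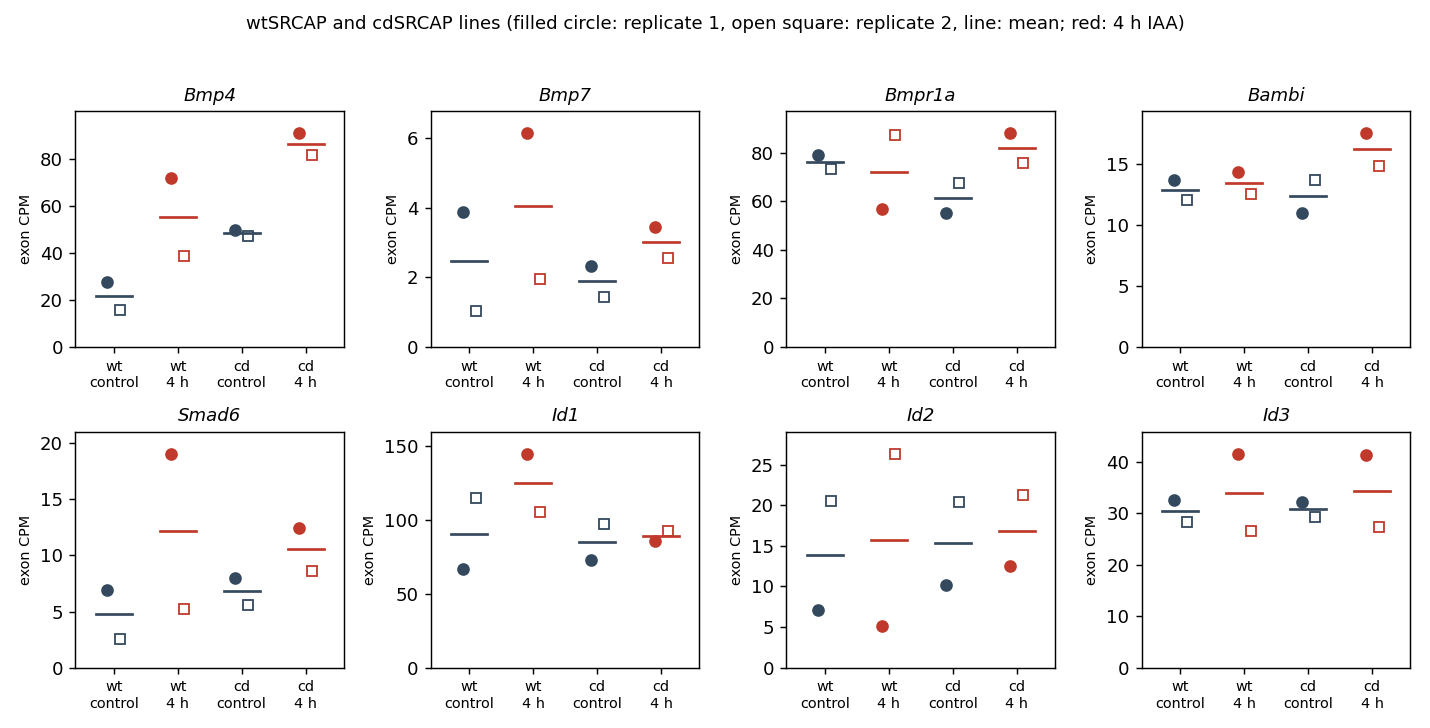
Exon CPM of the 8 members in wtSRCAP and cdSRCAP cells without IAA (dark) and after 4 h of IAA (red), with replicate 1 as filled circles, replicate 2 as open squares and lines for the mean of 2 libraries. Mean Bmp4 levels run from 21.5 CPM in wtSRCAP controls to 86.2 in cdSRCAP cells with IAA, and the wtSRCAP libraries with IAA lie on either side of the cdSRCAP controls. Smad6 and Id2 differ between replicate 1 and replicate 2 in each condition.

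Id1, Id2 and Id3 are targets of BMP signalling, and in the fit without the replicate block edgeR called none of them in any exon comparison with all libraries and the filter on low counts. Id1 had 117.6 and 103.6 CPM in SYAT controls, 119.7 and 148.3 at 2 h, 145.3 and 146.0 at 4 h, 120.0 and 236.7 at 6 h, and 121.7 and 100.6 at 8 h. The IAA libraries lay above the controls at 2, 4 and 6 h and overlapped them at 8 h. For Id3 the values were 54.4 and 50.3 CPM in the controls, 56.5 and 64.6 at 2 h, 69.8 and 65.9 at 4 h, 58.3 and 126.1 at 6 h, and 58.7 and 58.2 at 8 h, all 8 above both controls.

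The 6 h values of Id1 and Id3 rested on the second library. With both libraries the log2 fold changes were 0.69 for Id1 (SE 0.262, edgeR adjusted p = 0.240) and 0.82 for Id3 (SE 0.277, edgeR adjusted p = 0.203). Without that library they were 0.12 for Id1 (adjusted p = 0.810) and 0.16 for Id3 (adjusted p = 0.663). Without the first 6 h library instead, the 6 h group was only the library that stood apart. Bmp4, Id1, Id3 and Smad6 were then higher and Id2 lower, with log2 fold changes of 1.104 for Id1, 1.275 for Id3 and -0.73 for Id2. The share of all genes called in that fit is not given here, so its calls are not read as particular to the members. With the second library left out, 1 member (Smad6) had an unadjusted p under 0.05 at 6 h, against 12.3% of all genes, and Bmp4 had a log2 fold change of 0.74 (SE 0.387, adjusted p = 0.499). Id2 had 33.9 and 28.5 CPM in the controls and 36.9 and 42.4, 39.6 and 39.4, 37.4 and 18.7, and 45.7 and 34.5 CPM at 2, 4, 6 and 8 h. Its lowest value was in that same 6 h library, and all other IAA libraries of Id2 lay above both controls. At 6 h its log2 fold change was -0.15 with both libraries and 0.26 without the second.

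In CGR8 cells without the degron, the Id genes differed in direction from each other with IAA. Id1 went from 164.6 and 119.8 CPM to 101.5 and 92.1 CPM, with no overlap, a log2 fold change of -0.55 (SE 0.171, edgeR adjusted p = 0.540). Id3 went from 101.1 and 63.3 CPM to 65.1 and 54.7 CPM, with overlap, a log2 fold change of -0.46 (SE 0.217, edgeR adjusted p = 0.565). The first control library was the highest for both genes. Without the second control library the log2 fold changes were -0.76 for Id1 and -0.75 for Id3, and without the first they were -0.30 for Id1 and -0.07 for Id3. Id2 was at 18.6 and 20.0 CPM without and 19.2 and 26.4 CPM with IAA.

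In the sorted cells and in the transgene lines no Id gene had IAA libraries clear of its controls. Id2 had 7.12 and 20.5 CPM in wtSRCAP controls and 5.17 and 26.3 CPM with IAA, and 10.2 and 20.4 CPM in cdSRCAP controls and 12.5 and 21.2 CPM with IAA. Id1 had 67.0 and 114.8 CPM in wtSRCAP controls and 145.1 and 105.9 CPM with IAA, a log2 fold change of 0.46 (SE 0.294, edgeR adjusted p = 0.769, and adjusted p = 0.162 with the block). In cdSRCAP cells the Id1 log2 fold change with IAA was 0.07 (SE 0.293). Id3 differed by 0.15 in wtSRCAP cells and 0.16 in cdSRCAP cells with IAA. In sorted cells the log2 fold changes of the Id genes with IAA ran from 0.05 (Id3, EG1) to 0.17 (Id3, LG1), each with an SE between 0.277 and 0.306.

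**Figure D5:**
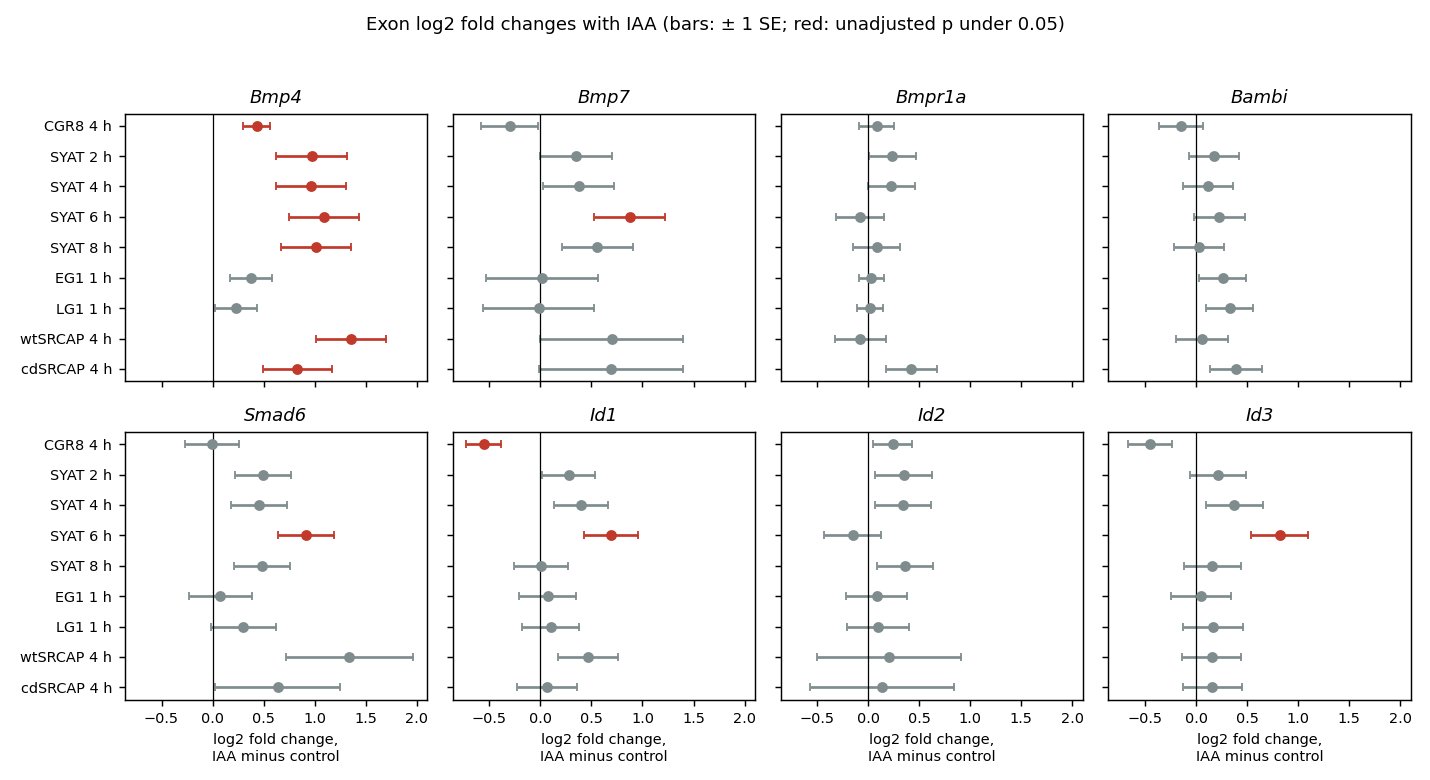
Log2 fold changes of exon counts with IAA against control for the 8 members in each line, phase and time, with bars of 1 SE from edgeR, in red where the unadjusted p was under 0.05. Bmp4 is to the right of 0 in all 9 contrasts, and the 5 red points at 6 h are Bmp4, Bmp7, Smad6, Id1 and Id3. None of the plotted values, from the fit without the replicate block, passed the adjusted test. In the transgene cells the blocked fit, not plotted, called Bmp4 in both lines and Smad6 in wtSRCAP cells.

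Counted over the members, the exon fold changes with IAA were above 0 for 8 of 8 members at 2, 4 and 8 h and for 6 of 8 at 6 h in SYAT cells, with medians of 0.31, 0.37, 0.26 and 0.75 on the log2 scale in the order 2, 4, 8 and 6 h. Without the second 6 h library 7 of 8 were above 0 at 6 h, with a median of 0.25. The medians over all genes tested lay between 0.00 and 0.03 at these times and between -0.02 and 0.02 in the other tables. In wtSRCAP and cdSRCAP cells 7 and 8 members were above 0 with medians of 0.34 and 0.40, in EG1 and LG1 8 and 7 with medians of 0.07 and 0.13, and in CGR8 cells 3 with a median of -0.08. The 4 SYAT counts share their controls.

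Intron counts were deposited beside the exon counts, but their content differed between tables. Id1 has no intronic base, yet its intron column equalled its exon count in all 10 libraries of the SYAT course and all 4 of EG1, and it was 0 in the other libraries. For Id1 these columns therefore held exon reads, and for the other members the intron columns of these libraries may include exon reads too, so that they are not the same quantity as in CGR8 and transgene cells. Bmp4 was an exception, with fewer intron than exon counts there. Id1, Id2 and Id3 were called lower and Bmp4 higher on introns in LG1 than in EG1 controls, where 59% of all genes were called, and this contrast is not read as expression. Bmp4 had no intron count in any EG1 library, although it had exon counts there. Bmp4 is low in introns in every table. In the SYAT course its intron column had 0 and 2.04 CPM in the controls, 2.57 and 15.9 at 2 h, 5.51 and 13.9 at 4 h, 5.17 and 7.37 at 6 h, and 4.79 and 9.69 at 8 h. The IAA libraries lay above the controls at each time, and the lowest edgeR adjusted p was 0.409. The 2 controls were far apart, with 0 counts in 1 of them. Leaving out 1 library moved the fitted log2 fold change at 4 h between 2.23 and 10.69, and no size is read from these fits.

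In CGR8 cells Bmp4 introns had 22.7 and 12.1 CPM without and 10.03 and 10.4 CPM with IAA, the opposite direction from its exons, with a log2 fold change of -0.76 (SE 0.431, edgeR adjusted p = 0.925). In wtSRCAP cells they had 5.34 and 2.81 CPM and then 6.90 and 9.30 CPM, a log2 fold change of 1.01 (SE 0.488, edgeR adjusted p = 0.428), and in cdSRCAP cells 12.01 and 8.92 CPM and then 16.9 and 12.8 CPM, a log2 fold change of 0.50 (SE 0.441, edgeR adjusted p = 0.749). Between cdSRCAP and wtSRCAP controls the intron log2 difference was 1.36 (SE 0.476, edgeR adjusted p = 0.546), from 11 to 47 counts per library. Bmpr1a introns in cdSRCAP cells were higher with IAA by 0.50 on the log2 scale (SE 0.148, edgeR adjusted p = 0.224). Smad6 introns had 7.31 and 7.36 CPM in SYAT controls and 9.28 to 18.4 CPM in the 8 IAA libraries, with a log2 fold change of 0.92 at 8 h (SE 0.344, edgeR adjusted p = 0.306), and of 0.74 (SE 0.309, adjusted p = 0.368) with the exon column subtracted. Outside the LG1 and EG1 controls no member was called on introns by edgeR or DESeq2, against 0.022% of genes in CGR8 cells, 0%, 0%, 0.0136% and 0.00679% at 2, 4, 6 and 8 h, 0.00573% in EG1 and 0% in LG1. In the transgene lines it was 0.299% of genes with IAA in wtSRCAP cells, 0.236% in cdSRCAP cells, 0.102% between the controls and 0.0157% between the IAA groups.

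Of 54 other genes of the BMP pathway, counted with the E proteins that Id proteins bind, 41 to 44 passed the filter on exon counts in each table. None was called in any comparison by edgeR. At an unadjusted p under 0.05, 2, 3, 8 and 3 were higher at 2, 4, 6 and 8 h in SYAT cells and none was lower, and higher genes made up 1.37%, 3.09%, 7.93% and 5.13% of all genes tested. Their median log2 fold changes were 0.11, 0.14, 0.21 and 0.06. Without the second 6 h library 2 of 46 tested were higher at 6 h and none lower, against 4.30% of all genes higher, and their median was 0.14. In CGR8 cells 2 were higher and 5 lower, against 5.04% and 4.12% of all genes. In wtSRCAP and cdSRCAP cells with IAA 3 were higher in each and none lower, against 2.93% and 1.65% of all genes higher, and in EG1 and LG1 none passed in either direction. In the sorted controls 1 was lower in LG1 than in EG1 (0.733% of all genes). Between cdSRCAP and wtSRCAP cells 5 were higher with cdSRCAP both without and with IAA, against 2.5% and 2.84% of all genes.

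The 4 genes of that list with an unadjusted p under 0.05 at 2 or more times of the SYAT course were all higher with IAA. Chrd, the extracellular BMP antagonist chordin, averaged 3.50 ± 0.854 CPM (SD, n = 2) in controls and 4.60, 5.87, 7.91 and 6.04 CPM at 2, 4, 6 and 8 h, with log2 fold changes of 0.75, 1.18 and 0.79 at 4, 6 and 8 h. Dusp9, a phosphatase of ERK that is induced by BMP4 in ES cells, averaged 73.6 ± 0.246 CPM in controls and 101.0, 149.8 and 125.6 CPM at 4, 6 and 8 h, with log2 fold changes of 0.46, 1.03 and 0.77. The lowest edgeR adjusted p was 0.0752 for Chrd and 0.0646 for Dusp9, both at 6 h. Msx1, a homeobox target of BMP signalling, had log2 fold changes of 0.54 at 4 h and 0.67 at 6 h, and Bmp6, another ligand, of 0.84 at 6 h and 0.68 at 8 h, with edgeR adjusted p of at least 0.208 for these 2 genes. Without the second 6 h library the 6 h values were 1.14 for Chrd (adjusted p = 0.161), 0.75 for Dusp9 (adjusted p = 0.135), 0.34 for Msx1 (adjusted p = 0.565) and 0.65 for Bmp6 (adjusted p = 0.492). In wtSRCAP cells the log2 fold changes with IAA were 1.20 for Chrd (edgeR adjusted p = 0.641), 0.67 for Dusp9 (adjusted p = 0.651) and 0.69 for Bmp6 (adjusted p = 0.666).

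Over the 10 libraries of the SYAT course the members fell into no single pattern. Id1 and Id3 had the highest correlation between members (Pearson r = 0.948 of log2 CPM), followed by Bmp7 and Smad6 (0.854) and by Bmpr1a and Id2 (0.842), and Id2 and Id3 the lowest (-0.662). These describe 10 libraries that include 2 shared controls and 1 library that stands apart. Among 13171 genes of average log2 CPM of at least 1, the gene most like Bmp4 was Gli1 (r = 0.973), and for the others it was Klhl2 for Bmp7 (0.946), Hist3h2ba for Bmpr1a (0.971), Ufc1 for Bambi (0.968), Cacng8 for Smad6 (0.942), Prrc2b for Id1 (0.979), Gm3756 for Id2 (0.966) and Otud5 for Id3 (0.981).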

How the data were processed

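The authors made nuclear RNA libraries with a directional kit and deposited raw counts per gene, from exons and from introns, in 4 tables. Per the labels and the study's methods, reads were mapped with STAR to mm10 and handled with SAMtools 1.10 and Picard, counted with featureCounts and tested with DESeq2. The strand setting is not given in the sources used here. Auxinole is given as 200 nM in the labels and 200 µM in the study's methods, and the labels do not say whether IAA samples kept it.

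Counts were tested as deposited with edgeR 4.0.16 in R 4.3.3: TMM scaling, a filter on low counts by condition (minimum count 10, minimum total 15), and a quasi-likelihood fit of a whole table by condition, with Benjamini-Hochberg adjustment over all genes tested. A call needed an adjusted p under 0.05 and an absolute log2 fold change over 0.5. DESeq2 1.42.0 was an alternative. The fits were tested on simulated data. Correlations of replicate differences decided pairing: above 0.1 for every pair of conditions in the sorted and transgene exon tables, from -0.04 to 0.59 in the SYAT course and 0.07 in CGR8. Named genes were the members, list genes with an unadjusted p under 0.05 at 2 or more SYAT times, and the 1 gene most like each member. Members and lists were chosen with earlier results of these data known. Gene models came from GENCODE vM21 (GRCm38), and all 8 member identifiers matched by version.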

Additional observations from a re-analysis of the deposited data

Results flagged for a closer look

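In some genes every IAA library lay below the controls in CGR8 cells, which have no degron, and above them in SYAT-derived cells after the same 4 h. The tables were fitted apart, so these differences between cell lines were not tested, and their cause was not tested. On exons Bmp7 had log2 fold changes of -0.30 in CGR8, 0.38 in SYAT and 0.69 in cdSRCAP cells, and Id1 had -0.55 in CGR8 and 0.40 in SYAT cells. On introns Bmp4 had -0.76 in CGR8, 1.01 in wtSRCAP and 0.50 in cdSRCAP cells. Its fitted value in SYAT cells was 3.21, with 0 counts in 1 control library. That value moved between 2.23 and 10.69 when 1 library was left out and is no measure of size. Intron values of Bmp7 were -0.56 in CGR8, 0.48 in SYAT and 0.73 in cdSRCAP cells, those of Bmpr1a were -0.12, 0.30 and 0.50 in the same order, and those of Bambi were -0.43 in CGR8 and 0.48 in cdSRCAP cells. The SYAT intron values of Bmp7 and Bmpr1a may include exon reads, and with the exon column subtracted they were 0.46 and 0.34. Groups of 2 libraries did not overlap for 42.2% of all genes on exons in CGR8 cells. On introns they did not overlap for 5008 of 13634 genes in CGR8 and 6764 of 14719 in SYAT cells at 4 h. In wtSRCAP cells it was 5270 of 12702 genes on introns, and in cdSRCAP cells 5900 of 12702. How many genes lay below the controls in CGR8 and above them in another line was not counted.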

How the results depend on the processing

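On exons, 137 of 165 counts of called members were the same as the main count and 28 moved, and on introns 147 of 155 were the same and 8 moved. The main exon fit had no member call that could be lost. On introns the only member calls were between the sorted controls, and none of them was lost. In the alternatives 35 of 1200 exon values and 9 of 1094 intron values became calls, and 150 and 82 changed sign without passing. The replicate block brought the exon count to 1 in CGR8 (Id1), in SYAT at 4, 6 and 8 h and in cdSRCAP cells with IAA (Bmp4), to 1 in cdSRCAP against wtSRCAP controls (Bmp4), to 1 in LG1 against EG1 controls (Smad6) and to 2 in wtSRCAP cells with IAA (Bmp4 and Smad6), where it called 612 genes in all against 1 without it. On introns the block called 1 member, Bmpr1a, in cdSRCAP cells with IAA. The numbers did not meet the rule for pairing in the CGR8 table, in the transgene intron table or in the SYAT table, where 6 of 10 pairs of conditions correlated over 0.1 and the other 4 were the pairs with 6 h. DESeq2 with the block called 1 member on exons (Bmp4) at 2, 4 and 8 h, over all times, in cdSRCAP cells with IAA and between the cdSRCAP and wtSRCAP groups without and with IAA, and 2 at 6 h (Bmp4 and Id3) and in wtSRCAP cells with IAA. On introns it called 1 member at 2, 4 and 8 h (Bmp4) and in wtSRCAP (Smad6) and cdSRCAP cells (Bmpr1a) with IAA. DESeq2 without the block called 1 at 6 h (Bmp4). Without a filter on low counts 1 exon call was made in CGR8 (Id1), in SYAT at 4 and 8 h (Bmp4), in wtSRCAP cells with IAA and between the controls (Bmp4), 3 at 6 h and over all times (Bmp4, Id1 and Id3), and 1 on introns in wtSRCAP cells (Smad6). Leaving out 1 library gave 0 to 2 calls in CGR8 (2 without the second control), 0 to 5 at 6 h and 0 to 3 over all times (the highest without the first 6 h library), and 0 to 2 on introns at 6 h. The share of all genes called in the fits without 1 library is not given here, so these calls are not read as particular to the members. Other size factors, fits on the 4 libraries compared and SYAT introns less exons moved no count. Bmp4 introns rested on 0 to 386 counts per library, which limits their precision.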
